A study of Mus musculus with 8 samples.

Results

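The miR-15 family, made up of mmu-miR-15a, mmu-miR-15b, mmu-miR-16, mmu-miR-195, mmu-miR-497 and mmu-miR-322 and written below without the species prefix, was examined in mouse liver after a methionine- and choline-deficient (MCD) diet. The 6 probes were chosen by the name of the guide strand, the strand that is loaded into the silencing complex, and they were 6 of 1135 miRNA probes on the array. The groups were 4 liver samples of MCD-fed mice and 4 of control mice on a normal diet, 1 array each, and the MCD diet served as a dietary model of steatohepatitis. According to the methods, all mice were male C57BL/6N, obtained at 8 weeks of age, and no genetic change or drug distinguished the groups used here. The labels give 23 weeks of diet for all of them, whereas the methods give a shorter feeding period. The labels number the samples without naming the mice. The methods speak of individual subjects for MCD-fed mice in a heatmap, without tying them to these arrays or to the control samples, so a p-value here covers only sample-to-sample spread, part of which may be technical. The scanner files give every MCD array cell number 2 and every control array cell number 1, so this position and diet cannot be told apart.

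miRNAs repress messenger RNAs that pair with the seed, bases 2 to 8 of the mature strand, and miRNAs with a common seed are grouped into a family because they can bind many of the same sites. The miR-15 family is known for repressing genes that drive the cell cycle, such as cyclins D1 and E1, and the survival gene Bcl2, and it restrains proliferation in several tissues. In rat hepatic stellate cells, the source of scar-forming myofibroblasts in liver, miR-15b and miR-16 are known to repress Bcl2.

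The mature sequences are shown because the common seed defines the family and because the bases after it are what tells the members apart on an array. They were taken from RefSeq (assembly GRCm38.p6) by name, which matched all 6 members, and are written 5′ to 3′ with bases 2 to 8 in capitals. The array design calls the guide strands of miR-195a and miR-497a simply miR-195 and miR-497.
miR-15a: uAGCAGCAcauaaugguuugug
miR-15b: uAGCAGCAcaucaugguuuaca
miR-16: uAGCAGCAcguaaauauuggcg
miR-195: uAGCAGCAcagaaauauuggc
miR-497: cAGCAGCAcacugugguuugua
miR-322: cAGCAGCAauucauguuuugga
miR-503: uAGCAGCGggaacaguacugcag
The seed AGCAGCA was identical in all 6 members and occurred at bases 2 to 8 in 10 of 1679 mature names of the RefSeq table (0.596%). The other 4 names, miR-195b, miR-6342, miR-6353 and miR-6419, matched no probe name on the array. miR-503, a neighbour of miR-322, differed from the members in the last base of the seed. Set side by side from the first base, miR-16 and miR-195 were the most alike pair, with 19 of 21 bases in common. miR-15a and miR-15b had 18 of 22 in common, and miR-195 and miR-497, although neighbours in the genome, had 12 of 21. How far each probe also binds its close relatives was not tested.

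The members lie in 4 clusters. miR-15a (chr14:61632075-61632096, minus strand) and one copy of miR-16 (chr14:61631936-61631957, minus strand) start 139 bases apart, inside the long noncoding gene Dleu2. In humans the matching region is often deleted in chronic lymphocytic leukaemia. miR-15b (chr3:69009775-69009796, plus strand) and the other copy of miR-16 (chr3:69009918-69009939, plus strand) start 143 bases apart inside Smc4, which encodes a condensin subunit. miR-497 (chr11:70234730-70234751, plus strand) and miR-195 (chr11:70235062-70235082, plus strand) start 332 bases apart. miR-322 (chrX:53054306-53054327, minus strand), whose human counterpart is called miR-424, lies beside miR-503 (chrX:53054027-53054049, minus strand), inside C430049B03Rik. Their lower coordinates are 279 bases apart. The mature miR-16 of both copies is the same molecule, so its probe reads the sum of the chromosome 14 and chromosome 3 clusters.

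Spot intensities are given in the scanner's linear units, and levels after normalization on the log2 scale. All 6 members lay above a limit of 2 SD over the mean of the negative controls on all 8 arrays. That limit was 250 to 289 in MCD liver and 286 to 293 in control liver, and 18.0% to 35.6% of the probes of an array passed it. miR-15b, miR-195 and miR-497 were higher in MCD liver, whereas miR-15a, miR-16 and miR-322 did not pass the test. Thus 3 of the 6 members were higher by limma at an adjusted p under 0.05, against 5.76% of the 1076 tested probes. None was lower, against 4.46% of the tested probes. At an unadjusted p under 0.05 in limma, a looser limit, 4 members were higher and 0 lower. All probes were not counted by direction at this limit, but miR-128, ranked 231 by p among the 1076 tested probes, still passed it. At least 231 tested probes, higher and lower together, thus passed it. By the methods' t-test without adjustment 4 members were likewise higher and 0 lower, against 122 higher and 94 lower of the 1076 tested probes. In bulk liver, more or fewer cells of a type and more or less RNA per cell cannot be told apart. The median log2 change of the 6 was 0.51, beside −0.01 over all tested probes.

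**Figure D1:**
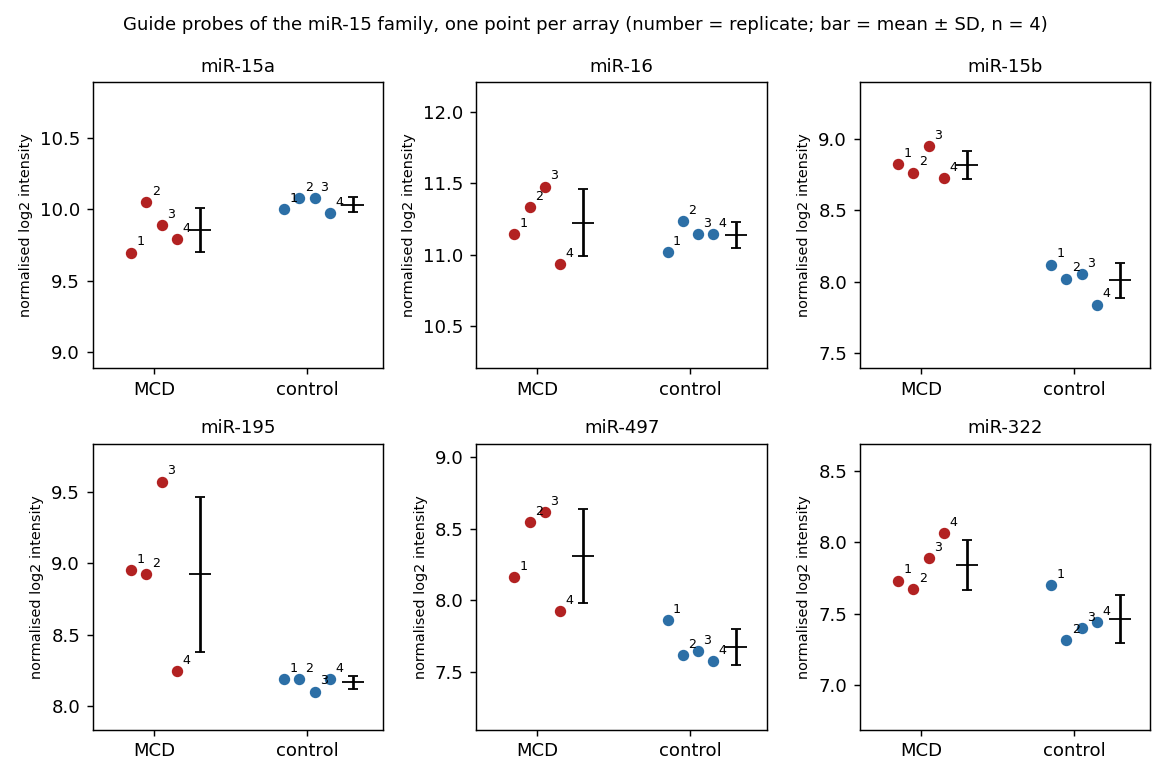
Normalized log2 intensity of the 6 guide probes on each array, 1 panel per probe with its own range, MCD left of control, numbers giving the replicate and bars the mean ± SD (n = 4). The MCD and control points of miR-15b, miR-195 and miR-497 do not overlap, whereas those of miR-15a, miR-16 and miR-322 do.

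In the Smc4 cluster, miR-15b gave spot intensities of 685, 578, 779 and 528 in the 4 MCD livers, against 438, 392, 382 and 364 in the 4 control livers. Every MCD liver lay above every control liver, before as well as after normalization. On the log2 scale miR-15b was at 8.82, 8.76, 8.95 and 8.73 in MCD liver and at 8.12, 8.02, 8.06 and 7.84 in control liver. The means were 8.82 ± 0.10 in MCD and 8.01 ± 0.12 in control (SD, n = 4 each), a log2 change of 0.81 ± 0.10 (SE), or 1.75-fold, with an adjusted p of 0.000160 (limma, Benjamini-Hochberg). This was the 17th smallest p among the tested probes. Groups that did not overlap in this direction were found for 8.83% of the tested probes.

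miR-16, which the chromosome 3 and chromosome 14 clusters both encode, was the brightest member. Its spots read 2854, 2394, 3495 and 1797 in MCD liver, against 2508, 2713, 2392 and 2135 in control liver. The MCD livers thus held both the highest and the lowest reading. After normalization the means were 11.22 ± 0.23 in MCD and 11.14 ± 0.09 in control (SD, n = 4 each). The log2 change of 0.09 ± 0.12 (SE) had a 95% interval of −0.17 to 0.35 and an adjusted p of 0.741 in limma.

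miR-15a of the Dleu2 cluster was the only member with a lower mean in MCD liver. Its spots read 1069, 1090, 1318 and 835 in MCD liver, against 1346, 1262, 1159 and 1047 in control liver. The groups overlapped, so no member was lower without overlap, against 6.23% of the tested probes. The normalized means were 9.85 ± 0.15 in MCD and 10.03 ± 0.05 in control (SD, n = 4 each). The log2 change of −0.18 ± 0.10 (SE) had a 95% interval of −0.39 to 0.04 and an adjusted p of 0.347 in limma.

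In the chromosome 11 cluster, miR-195 varied most among the MCD livers. Its spots read 721, 596, 1104 and 411 in MCD liver, against 447, 394, 384 and 393 in control liver. The third MCD liver was the highest, and the fourth lay below the first control liver on the scanner's scale. After normalization miR-195 was at 8.95, 8.92, 9.57 and 8.24 in MCD liver and at 8.19, 8.19, 8.10 and 8.19 in control liver, so that the lowest MCD value stood just above the highest control value. Quantile normalization, which gives every array the same set of values, had assigned 3 of the control livers the same value. The means were 8.92 ± 0.54 in MCD and 8.17 ± 0.04 in control (SD, n = 4 each). The log2 change was 0.75 ± 0.21 (SE), or 1.69-fold, with an adjusted p of 0.0363 in limma. miR-195 passed the test in only 1 of the 8 fits that left out an array. Without the fourth MCD liver the log2 change was 0.98 (adjusted p = 0.00115). Without any other array it lay between 0.54, without the third MCD liver, and 0.76, and the adjusted p between 0.0612 and 0.110 in limma.

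Its neighbour miR-497 changed in the same direction. Spots read 479, 518, 613 and 364 in MCD liver, against 375, 324, 321 and 317 in control liver. As for miR-195, the third MCD liver was the highest and the fourth lay below the first control liver on the scanner's scale. Normalized levels were 8.16, 8.55, 8.62 and 7.92 in MCD liver and 7.86, 7.61, 7.64 and 7.57 in control liver, without overlap. The means were 8.31 ± 0.33 in MCD and 7.67 ± 0.13 in control (SD, n = 4 each). The log2 change was 0.64 ± 0.15 (SE), or 1.56-fold, with an adjusted p of 0.0156 in limma. It missed the threshold without the second MCD liver (log2 change 0.56, adjusted p = 0.0527) and without the fourth control liver (0.61, adjusted p = 0.0639), and passed without any other array.

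miR-322, known in mouse muscle precursors for slowing the cell cycle, was the dimmest member. Its spots read 366, 345, 418 and 393 in MCD liver, against 355, 296, 303 and 308 in control liver. The first control liver lay above the second MCD liver, so the groups overlapped. The normalized means were 7.84 ± 0.18 in MCD and 7.46 ± 0.17 in control (SD, n = 4 each). The log2 change of 0.38 ± 0.12 (SE) had a 95% interval of 0.12 to 0.63 and an adjusted p of 0.0658 in limma. Without the first control liver it was 0.46 and passed the test (adjusted p = 0.0419 in limma). It also passed under median scaling in place of quantile normalization (0.53, adjusted p = 0.0110).

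**Figure D2:**
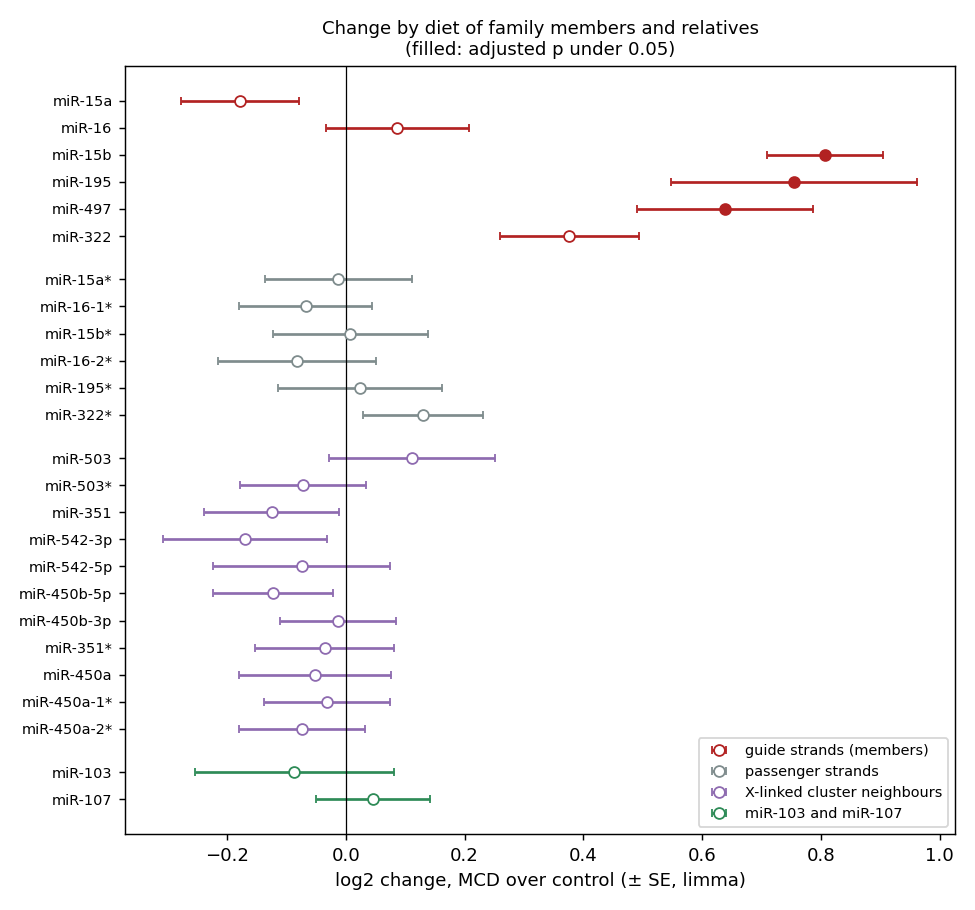
Log2 change of MCD over control (± SE, limma) for the 6 guide probes, their 6 tested passenger strands, the 11 other probes of the X-linked cluster, miR-103 and miR-107, with filled points at an adjusted p under 0.05. The filled points are miR-15b at 0.81, miR-195 at 0.75 and miR-497 at 0.64, and no passenger strand or neighbour lies above 0.13.

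The sizes of the changes depended on both the background correction and the scaling between arrays. With a blank subtracted and quantile normalization kept, the log2 change of miR-15b was 1.03, and with the offset of 50 kept and median scaling it was 1.07. On the authors' processed intensities, which differ in both respects, with a blank subtracted, no offset and 1 scaling factor per array, the log2 change was 1.20 for miR-15b, 1.14 for miR-195, 1.16 for miR-497 and 0.76 for miR-322. With no background correction the changes were 0.58, 0.56, 0.43 and 0.21 in the same order of members. miR-15a lay at −0.30 on the authors' processed intensities and at −0.15 with no background correction. With a blank subtracted from the scanner values, miR-195 and miR-497 both changed by 0.95 but missed the threshold in limma (adjusted p = 0.107 for miR-195 and 0.0603 for miR-497). The order of the changes of miR-15b, miR-195 and miR-497 among themselves was therefore not fixed, whereas miR-322 stayed below them and miR-15a below 0 under these settings.

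To set the clusters against each other, the log2 difference between 2 members was taken within each array. It was compared between the diets with an exact two-sided permutation test. A single scaling factor applied to a whole array would not move this difference, but quantile normalization is not such a factor. With no scaling the change of miR-15b minus that of miR-15a was 1.22 instead of 0.98. All 15 pairs of members were compared, and the smallest p that 4 against 4 arrays allow is 0.0286. The members fell on 2 sides. miR-15b, miR-195 and miR-497 each changed by more than miR-15a and by more than miR-16, and for these 6 of 15 pairs the within-array differences did not overlap between MCD and control. Over all pairs of tested probes, 17.9% did not overlap. Each of the 6 had a p of 0.0286 and a Benjamini-Hochberg adjusted p of 0.0714 over the 15 pairs in the exact permutation test, so none passed 0.05 after adjustment. With only 6 of 15 pairs at the smallest possible p, none could pass, however large the gaps. The adjusted p therefore does not measure their size.

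miR-15b and miR-15a, the partners of miR-16 in its 2 clusters, were set against each other first. The change of miR-15b minus that of miR-15a was 0.98 ± 0.11 (SE) on the log2 scale. The change of miR-16 minus that of miR-15b, its neighbour on chromosome 3, was −0.72 ± 0.12, whereas that of miR-16 minus miR-15a, its neighbour on chromosome 14, was 0.26 ± 0.10 (exact permutation p = 0.0857). The chromosome 11 members stood apart from the chromosome 14 members by 0.93 ± 0.27 for miR-195 minus miR-15a and by 0.82 ± 0.14 for miR-497 minus miR-15a. Against miR-16 the gaps were 0.67 ± 0.17 for miR-195 and 0.55 ± 0.12 for miR-497. For miR-195 against miR-16, the pair closest in sequence, the within-array differences overlapped between the diets under cyclic loess, where the gap was 0.71.

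Among the members that were higher, no gap exceeded the spread between arrays. The change of miR-195 minus that of miR-15b was −0.05 ± 0.24 (SE, exact permutation p = 0.857). Left-out arrays moved this difference between −0.22, without the third MCD liver, and 0.14, without the fourth, and it was also above 0 without the fourth control liver. The change of miR-497 minus that of miR-195, encoded beside each other, was −0.12 ± 0.17 (exact permutation p = 0.514), and that of miR-497 minus miR-15b was −0.17 ± 0.14 (exact permutation p = 0.343). miR-322 lay between the sides. Its change was larger than that of miR-15a by 0.55 ± 0.17 and smaller than that of miR-15b by 0.43 ± 0.13, each with an exact permutation p of 0.0571 and an adjusted p of 0.107. On the authors' processed intensities 9 pairs did not overlap between the diets, adding miR-322 minus miR-15a at 1.06, miR-322 minus miR-16 at 0.77 and miR-16 minus miR-15a at 0.29. The share over all pairs of tested probes was not taken on those intensities, so these 9 have no rate beside them.

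**Figure D3:**
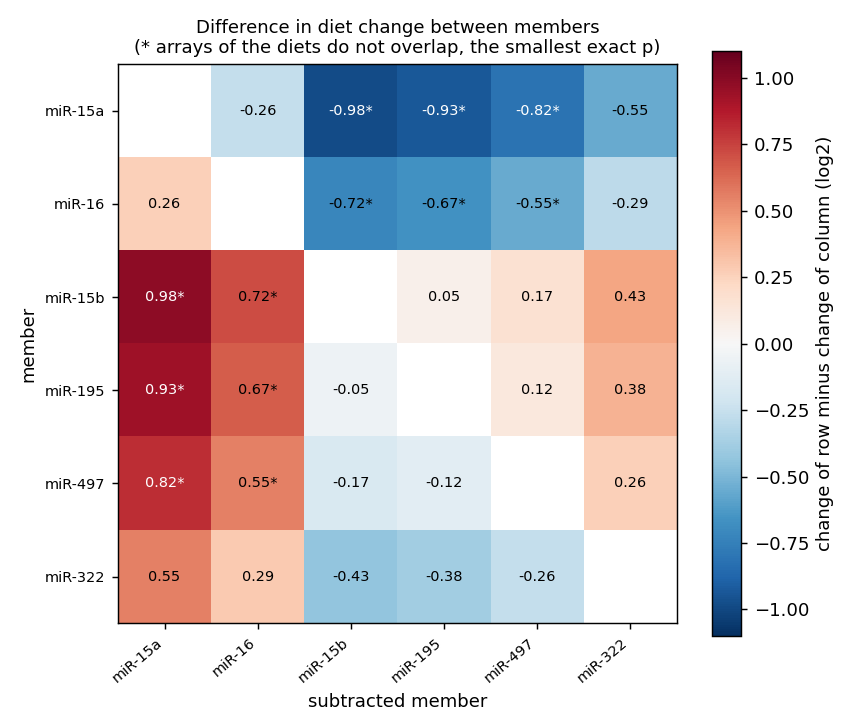
Difference in log2 change (MCD over control) between members as a grid, each cell giving the change of the member named at its row minus that of the member named at its column, with the colour scale in log2 units. An asterisk marks the 6 pairs whose within-array differences did not overlap between MCD and control, each of which sets miR-15b, miR-195 or miR-497 against miR-15a or miR-16.

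The passenger strands, the opposite strands of the same hairpins, which are usually degraded, were at or near background. The array held 7 of their probes, of which 6 were tested, and the probe of miR-497* was too dim for testing. None of the 6 changed by limma, adjusted or at an unadjusted p under 0.05, nor by the methods' t-test. Their log2 changes ran between −0.08 for miR-16-2* and 0.13 for miR-322*, with a median of −0.0024 (0 of 6 past the threshold, against 10.2% of the tested probes in either direction). No passenger probe exceeded the negative control limit on more than 2 of the 8 arrays. The passenger strand of the clearest member, miR-15b*, read 234, 253, 248 and 268 in MCD liver and 288, 259, 231 and 253 in control liver, and the groups overlapped. That of miR-322, miR-322*, read 262, 269, 294 and 275 in MCD liver against 263, 262, 281 and 283 in control liver.

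The other probes of the X-linked cluster of miR-322 were equally dim. This cluster holds miR-503, miR-351, the miR-542 strands and the miR-450 miRNAs, 11 probes in all. None of the 11 changed by limma, adjusted or at an unadjusted p under 0.05, nor by the methods' t-test. Past the adjusted threshold this is 0 of 11, against 10.2% of the tested probes in either direction, so so few probes say little. None exceeded the negative control limit on more than 1 array. The log2 changes ran between −0.17 for miR-542-3p and 0.11 ± 0.14 (SE) for miR-503, with a median of −0.07. miR-503 read 252, 229, 279 and 268 in MCD liver and 251, 238, 269 and 263 in control liver, and the groups overlapped. Its 95% interval of −0.19 to 0.42 holds the log2 change of miR-322.

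miR-103 and miR-107 carry the letters of the family seed 1 base further towards the 5′ end and are known for their role in insulin sensitivity of the liver. They are not counted as members. miR-103 read 1057, 600, 1147 and 843 in MCD liver, against 977, 956, 915 and 828 in control liver, with a log2 change of −0.09 ± 0.17 (SE, adjusted p = 0.827 in limma). miR-107 read 962, 850, 992 and 762 in MCD liver, against 960, 887, 832 and 745 in control liver, with a change of 0.05 ± 0.10 (adjusted p = 0.835). Both overlapped between the diets, and the second MCD liver was the lowest of all for miR-103. For reference the mature sequence of miR-103 is given with the same letters in capitals.
miR-103: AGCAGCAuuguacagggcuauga

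To find the probes with the most similar course over the 8 arrays, each log2 profile was centred on its own mean and the root mean square difference to every other tested probe was taken. This is a description of arrays that differ by diet, so probes with a like diet change come near each other. Nearest to miR-15b were miR-145, a smooth muscle miRNA, at 0.0780 log2 units and miR-27a at 0.0882, whose own changes were 0.78 and 0.83. Nearest to miR-195 were miR-199b*, of the miR-199 and miR-214 group that marks stellate cells, at 0.160 and the myeloid miR-223 at 0.175. For miR-497 they were miR-434-5p at 0.127 and miR-377 at 0.136, both of the imprinted Dlk1-Dio3 region, and for miR-322 they were miR-132 at 0.104 and miR-499 at 0.109. For miR-15a and miR-16, which overlapped between the diets, the nearest probes were miR-499* at 0.0723 and miR-196a at 0.0742, and miR-130a* at 0.0885 and miR-31* at 0.0908. Among the members, miR-15a and miR-16 were nearest to each other at 0.183, and miR-15b and miR-497 at 0.195.

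Marker miRNAs of liver cell types were set beside the family. The labelled tissue was checked against miR-122, the dominant hepatocyte miRNA, which was at 14.15 in MCD and 14.98 in control on the log2 scale, a change of −0.83 (adjusted p = 0.000955 in limma). Quantile normalization had given miR-122 the same value in all 4 control livers, so their spread there is 0. The next brightest hepatocyte probe, miR-192, was at 12.24 in control liver. The hepatocyte sums are therefore mostly miR-122 and not a separate reading. Of 8 hepatocyte probes, 6 were lower by limma at an adjusted p under 0.05, against 4.46% of the tested probes. The summed normalized intensity of the 8 was 22004 to 28763 in MCD liver against 43783 to 46761 in control liver. Of 9 mesenchymal probes, 7 were higher at the same limit, against 5.76% of the tested probes. The sums of the 9 were 5866 to 7991 in MCD liver against 3514 to 3948 in control liver, with a median log2 change of 0.78. The share of 5.76% also stands beside the leukocyte, bile duct and endothelial counts. Leukocyte probes were higher for 4 of 8, with sums of 1510 to 2022 in MCD liver against 1346 to 1755 in control liver. Bile duct probes were higher for 3 of 5, with sums of 1234 to 2731 in MCD liver against 573 to 635 in control liver. Of the 2 endothelial probes miR-126-3p was higher, with a log2 change of 0.67. The other, miR-126-5p, did not pass the test (0.09, adjusted p = 0.738 in limma). The sums were 4242 to 5991 in MCD liver against 3045 to 3455 in control liver. They mostly follow miR-126-3p, at 12.18 in MCD liver on the log2 scale against 8.67 for miR-126-5p. None of 4 red blood cell probes changed by limma, adjusted (against 10.2% of the tested probes in either direction) or at an unadjusted p under 0.05. Their sums were 916 to 2785 in MCD liver against 804 to 2006 in control liver. Among them miR-451, the main red blood cell miRNA, had a log2 change of 0.81 ± 0.44 (SE, adjusted p = 0.318 in limma). The mesenchymal, bile duct and endothelial sums were thus higher in every MCD liver, as were miR-15b, miR-195 and miR-497, and the part of these markers in the changes of the family was not tested. No marker probe was below the blank limit on all arrays.

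**Figure D4:**
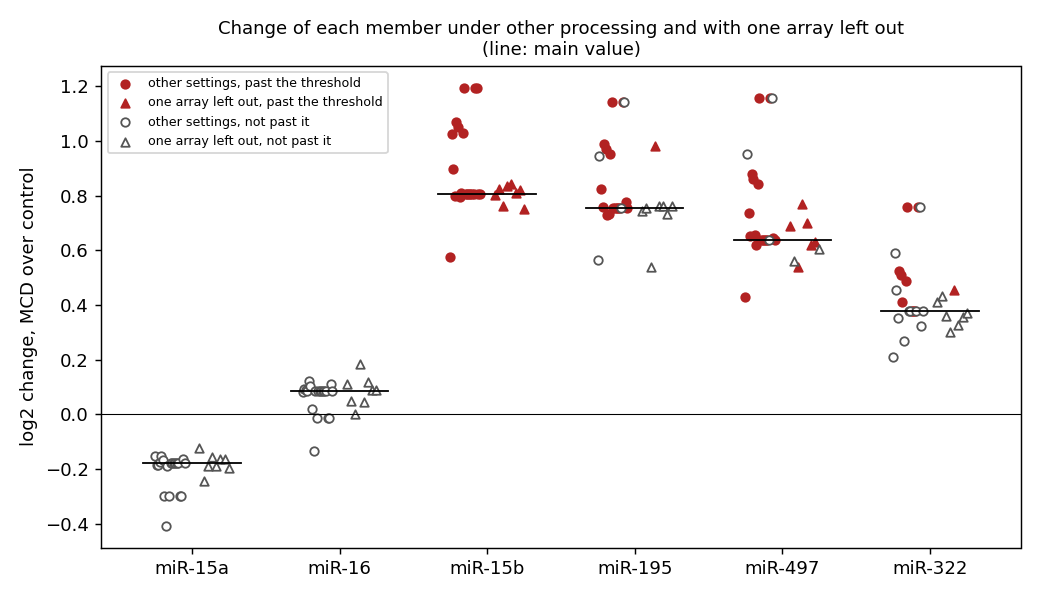
Log2 change of MCD over control for the 6 guide probes under the 20 other ways of processing or testing the intensities (circles) and with 1 array left out (8 triangles), filled where the threshold was passed, with a line at the reported change. For the methods' t-test without adjustment, on these and on the authors' values, the threshold was set on the unadjusted p. miR-15b was past the threshold in every case drawn, and miR-15a and miR-16 in none.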

How the data were processed

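Each deposited scanner file held, for 3136 spots, an intensity (median of the spot's pixels) and a local background intensity, both linear and uncorrected. The processed intensities of the authors, in a second deposited table, matched blank-subtracted spot intensities times 1 factor per array giving a median of 45 on every array. This table served as an alternative. The labels name the dye Hy5, whereas the scanner columns carry the wavelength of the green dye, and the same columns were used for every array.

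Intensities were corrected by normexp against the local background (offset 50), converted to log2 values and brought to the same quantiles across arrays, using the 1135 miRNA probes, with limma 3.58.1 in R 4.3.3. Probes above the blank mean plus 2 SD on at least 4 of 8 arrays were tested (1076 probes). The diets were compared with limma (lmFit, eBayes, two-sided, Benjamini-Hochberg over all tested probes, threshold 0.05), without a block. The procedure was tested on simulated data. The number of arrays limits the precision.

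The probes named were the 6 guides, their passenger strands, probes with the same seed, the X-linked neighbours of miR-322, miR-103, miR-107 and the 2 nearest profiles of each member. Marker lists were given as counts. The members, lists and tests were chosen with earlier results of these data known. The alternatives covered background, scaling, filter, test (among them the methods' t-test), array weights, a replicate block and left-out arrays.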

Additional observations from a re-analysis of the deposited data

Results flagged for a closer look

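In 52 groups of 4 arrays, formed in each diet by the family probes, their passenger strands, the X-linked neighbours of miR-322, miR-103 and miR-107, a sample standing far from the others was looked for by Dixon's ratio, the gap of the end sample over the range of the group. Chance gives about 1 such group in 20. miR-195 in the third control liver had a ratio of 1, at 8.10 against 8.19 in the other control livers, which quantile normalization had set to the same value. miR-351 in the second MCD liver had a ratio of 0.886, at 7.11 against at most 7.01 in the other MCD livers, and its probe was near background.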

How the results depend on the processing

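The count of members past the threshold was 1, miR-15b, instead of 3 with blank subtraction and, after adjustment, with the methods' t-test on these or the authors' values, and 1 to 3 with an array left out. miR-15b passed in all 20 other settings (log2 change 0.58 to 1.20) and all 8 with an array left out, miR-497 in 17 and 6, miR-195 in 16 and 1, miR-322 in 9 and 1, miR-15a and miR-16 in none. The 20 settings include the methods' t-test without adjustment, on these and on the authors' values. There the threshold was set on the unadjusted p, and miR-15b, miR-195, miR-497 and miR-322 passed each time. miR-195 was also lost with no background correction (0.56, adjusted p = 0.0636 in limma). miR-322 passed with median (0.53), 75th percentile (0.51), cyclic loess (0.41) or no scaling (0.49). Pairs without overlap numbered 6 to 9 under other processing, 9 on the authors' values, where the share over all probe pairs was not taken. With an array left out they numbered 6 to 10, 10 without the fourth MCD liver. Leaving out an array can only keep or raise this count, so that range does not test the 6 pairs. Under spike control scaling, which moved the median of all probes by −0.24, the log2 change turned to −0.14 for miR-16, −0.14 for miR-107, −0.12 for miR-503 and −0.095 for miR-322*. It was also −0.013 for miR-16 and −0.0027 for miR-107 on the authors' values, −0.050 for miR-107 with cyclic loess and between −0.20 and 0.11 for miR-103 with an array left out, highest without the second MCD liver. The change of miR-497 minus that of miR-195 was 0.0073 with blank subtraction and 0.014 on the authors' values. Against 62 probes higher and 48 lower, spike control scaling gave 34 and 93, median scaling 65 and 30, 75th percentile scaling 64 and 31, no scaling 55 and 33, blank subtraction 43 and 24, the methods' t-test 122 and 94 unadjusted and 34 and 24 adjusted, its adjusted form on the authors' values 12 and 15, and left-out arrays 41 to 68 and 25 to 47. Same-numbered samples were treated as unpaired. The correlations of their deviations lay between −0.00685 and 0.0953, and only some correlated best with their own number. These values cannot settle whether the samples were paired. With the replicate number as a block, 3 members and 67 and 51 probes passed, and no member changed its call. The slide as a block was not run, because the files name no slide. Except where a value shows it, the cause of a change was not tested.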
